A study of Homo sapiens with 12 samples.

Results

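The early response of MKL-1 cells to an EZH2 inhibitor was taken from 6 of the 12 libraries of the series, the 3 libraries of cells given 3 µM EPZ011989 for 6 days and the 3 vehicle libraries of the same day. MKL-1 is an established line of Merkel cell carcinoma, a neuroendocrine skin cancer, and EPZ011989 is a small molecule that inhibits the methyltransferase EZH2. Both groups received ethanol at 1%, cells of both were split into fresh medium every 3 days, and polyA-selected RNA was sequenced. The groups come from the sample titles, which do not say whether replicates were separate cultures, so a p-value here reflects only how much the libraries of a group vary, and that variation may be technical. The other 6 libraries, vehicle and EPZ011989 at day 12, entered the fit for the estimate of the spread, and the day 12 vehicle libraries served to rank genes by level without using the day 6 values.

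Polycomb repressive complex 2 (PRC2) uses EZH2 as its enzyme to place methyl groups on lysine 27 of histone H3. The mark is found at silent developmental genes, often at starts rich in CpG dinucleotides, and Polycomb repressive complex 1 can bind it. An inhibitor blocks the enzyme without removing the protein, and the mark is lost as histones are replaced and cells divide.

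The day 6 libraries held 15994997 to 20866370 estimated reads, and 3 reads corresponded to 0.144 to 0.188 CPM, the reads of a gene scaled to a common library size. Enough reads for a test were found for 15024 of 35347 genes. All 15 Merkel cell markers examined were tested, of which 11 fell and 1 rose, and their summed level was 5481 to 5595 CPM in vehicle and 4464 to 4568 CPM in treated libraries. A longer list of 23 Merkel cell genes had 13 fallen and 5 risen, 3 of them at least 2-fold. Of all tested genes 17.0% fell and 17.1% rose. Of tested protein-coding genes at 10 CPM or more, the level of 22 of the 23, 24.4% fell and 14.1% rose. The summed level of 8 fibroblast markers was 15.2 to 20.3 CPM in vehicle and 21.8 to 29.9 CPM in treated libraries, and that of 12 leukocyte markers 11.7 to 13.0 and 4.61 to 5.58 CPM, with CD3D at no read. The sums stayed at or below 7.31 CPM for 7 endothelial markers and 15.5 CPM for 9 keratinocyte markers, of which KRT1, IVL and LORICRIN had no read. Of 4 fibroblast markers with enough reads for a test 1 rose, and of 3 such leukocyte markers 1 fell. The libraries are of a cultured line, and whether any of these reads came from other cell types was not tested. In bulk RNA fewer cells of a type and less RNA per cell cannot be told apart. EZH2 itself was at 156, 159.8 and 156 CPM in vehicle and 137, 138 and 142 CPM in treated libraries, so its transcript remained abundant and was lower in each treated library.

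With edgeR's quasi-likelihood test and a Benjamini-Hochberg adjusted p under 0.05, 34.2% of the tested genes changed, 17.1% upwards (2575 genes) and 17.0% downwards (2558 genes). The directions differed in size. Rises of at least 2-fold made up 7.1% of tested genes (1067 genes) and falls of that size 0.692% (104 genes). The values of the 3 treated libraries lay above those of all 3 vehicle libraries for 24.0% of tested genes and below them for 27.1%. The risen genes took 13.4 to 13.8% of the reads in vehicle and 18.8% in each treated library, whereas the fallen genes went from 32.9 to 33.7% down to 27.5 to 27.6%. The genes risen at least 2-fold accounted for little of this RNA, with a mean of 0.801% of reads in vehicle and 2.43% in treated libraries. The number of falls was the less stable count. It was 1314 when effective transcript lengths were used as an offset, with 1924 rises, so that 59.4% of called genes rose in place of 50.2%, and 1601 and 1649 when vehicle replicate 2 or 3 was left out. Without vehicle replicate 2 the falls of at least 2-fold numbered 68.

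Group values below are either those of replicates 1, 2 and 3 in this order or means ± SD of 3 libraries, and ± after a log2 fold change is its standard error. Genes were placed in 5 classes by their mean level in the day 12 vehicle libraries. Rises dominated among genes of low level and falls among genes of high level. Of 1647 genes at 0.3 to 1 CPM, 16.4% rose and 0.546% fell, and 1342 had enough reads for a test. Genes of this class lie near the level of 3 reads, so a fall has less room to be called than a rise. They can also pass the filter through treated libraries. How much this adds to the difference was not tested. At 1 to 10 CPM 23.3% of 3049 genes rose and 4.33% fell, at 10 to 100 CPM 14.9% of 7322 rose and 20.5% fell, and at 100 CPM and more 11.4% of 2640 rose and 34.5% fell. Under 0.3 CPM 200 of 20689 genes rose and 6 fell, but only 672 had enough reads for a test, and a gene of this class can pass that filter through its treated libraries alone. Changes of at least 2-fold came mainly from genes under 10 CPM, which made up 913 of 1067 such rises (85.6%) and 68 of 104 such falls (65.4%). Of changes of any size, 1394 of 2575 rises (54.1%) and 2411 of 2558 falls (94.3%) were genes at 10 CPM or more.

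**Figure D1:**
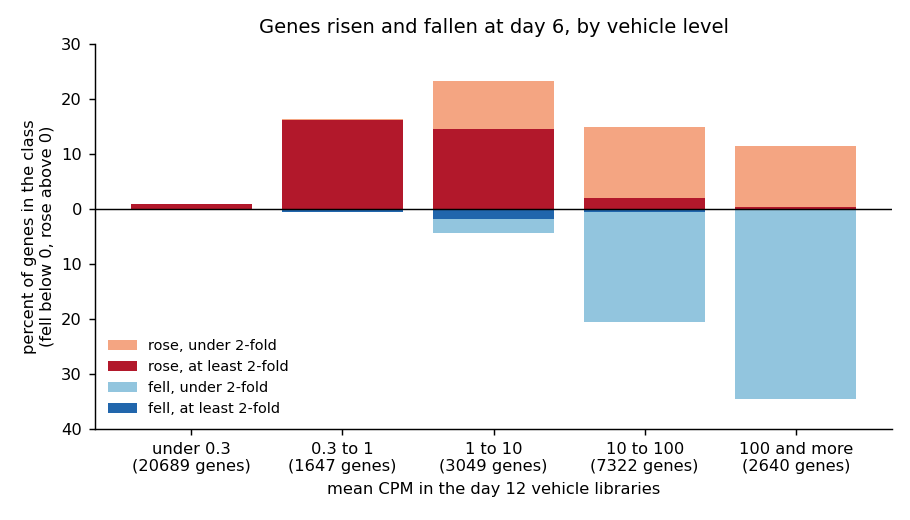
Percent of all genes in each class of vehicle level that rose (above 0) or fell (below 0) at day 6, with changes of at least 2-fold in the darker colour; the x axis gives the class by mean CPM in the day 12 vehicle libraries. Rises outnumber falls up to 10 CPM and falls outnumber rises from 10 CPM on, which at 10 to 100 CPM turns round when transcript lengths are used as an offset (10.7% risen, 9.49% fallen).

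The size of the change also followed the level. The median log2 fold change of risen genes was 2.92 under 0.3 CPM, 2.21 at 0.3 to 1 CPM, 1.22 at 1 to 10 CPM, 0.45 at 10 to 100 CPM and 0.27 at 100 CPM and more. Precision moved with it, since the median standard error of a log2 fold change was 0.80 in the lowest class and 0.05 in the highest, so small changes of low genes were not detectable at this depth. Over all tested genes of a class, called or not, the median was 0.38 at 0.3 to 1 CPM, 0.16 at 1 to 10 CPM, -0.06 at 10 to 100 CPM and -0.08 at 100 CPM and more. With transcript lengths as an offset the share that fell was 9.49% at 10 to 100 CPM and 21.1% at 100 CPM and more, against 10.7% and 9.47% that rose, so that rises outnumbered falls at 10 to 100 CPM. With only the day 6 libraries in the fit 18.1% rose at 100 CPM and more.

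**Figure D2:**
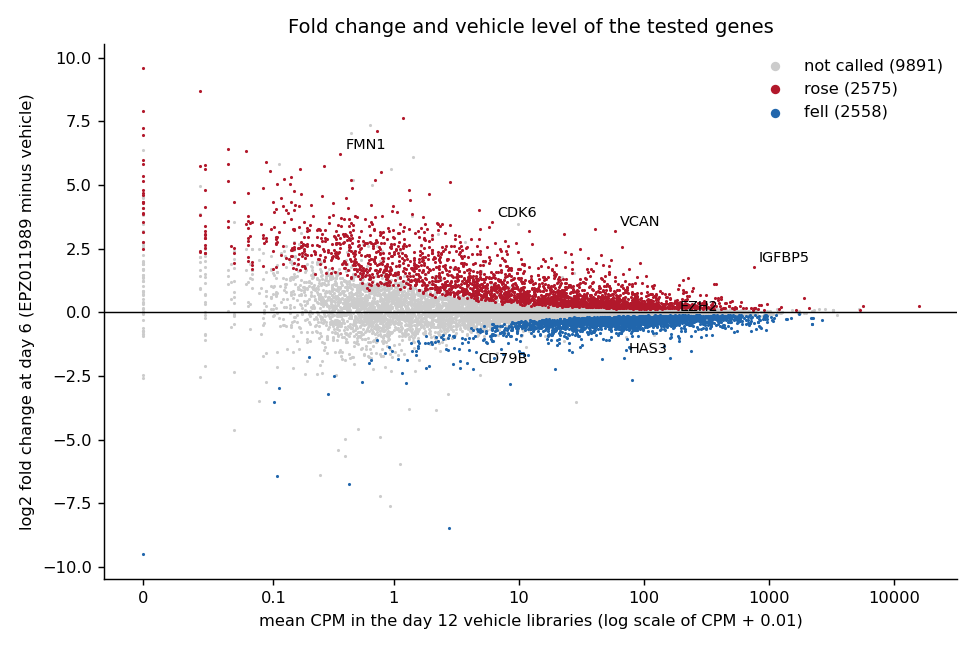
Each point is a tested gene, with its mean CPM in the day 12 vehicle libraries on a log axis (x) and its log2 fold change at day 6, EPZ011989 minus vehicle (y); 7 genes are labelled. The 2575 risen genes reach large folds at low levels and the 2558 fallen genes gather close to 0 at high levels.

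Genes were named in each level class by the size of a called change, and only where treated and vehicle libraries did not overlap. The lack of overlap in these genes is therefore a condition and not a result. At 0.3 to 1 CPM the named rises were FMN1, RGPD1, DGKK, ADRA1A and ABCD2. FMN1, a formin that nucleates actin filaments, was at 0.221, 0.380 and 0.0528 CPM in vehicle and 17.2, 14.2 and 18.3 CPM in treated libraries. DGKK, a diacylglycerol kinase, was at 0.110, 0.163 and 0.158 CPM in vehicle and 6.22, 5.19 and 5.13 CPM in treated libraries, 8 against 297 reads, a ratio of 38.6 with an exact 95% interval for counting error of 19.3 to 90.2. Both were close to the level of 3 reads in vehicle and detected in every treated library. ABCD2, a peroxisomal transporter of fatty acids, was at 0.162 ± 0.196 CPM in vehicle and 3.32 ± 0.401 CPM in treated cells (9 against 179 reads). The falls that the rule named here were TMIGD2, an immune receptor gene, RRAD, a small GTPase gene, and the tubulin gene TUBA3D, each at about 1 CPM in vehicle. Their log2 fold changes were -1.54 ± 0.44, -1.38 ± 0.45 and -1.07 ± 0.39, with edgeR adjusted p of 0.0151, 0.0301 and 0.0468, and all 3 lost the call in limma on the deposited table, with transcript lengths as an offset, and without treated replicate 2 or 3 or vehicle replicate 2.

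Among genes at 1 to 10 CPM the rises reached well expressed levels. LPAR3, a receptor for lysophosphatidic acid (chromosome 1, 84811602 to 84893213, GRCh38), was at 1.32, 1.09 and 1.21 CPM in vehicle and 34.0, 33.3 and 33.9 CPM in treated libraries. GRIN2A, a subunit of the NMDA glutamate receptor (chromosome 16, 9753404 to 10182754), was at 3.09, 1.63 and 0.950 and 45.2, 47.9 and 50.5 CPM. In both genes the treated libraries lay close together and far above each vehicle library, while the vehicle values of GRIN2A differed among themselves more than those of LPAR3. The log2 fold changes were 4.80 ± 0.09 and 4.67 ± 0.18, with edgeR adjusted p of 2.81e-13 and 1.67e-10. TUBB2B, a beta tubulin of neurons, rose from 5.62 ± 1.58 to 92.1 ± 4.89 CPM and NETO1, an auxiliary subunit of glutamate receptors, from 0.887 ± 0.269 to 19.2 ± 0.731 CPM.

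Among the falls at 1 to 10 CPM, SLC6A18, an amino acid transporter of the kidney, was at 4.19, 4.72 and 5.65 CPM in vehicle and 1.13, 1.22 and 1.21 CPM in treated libraries (log2 fold change -2.03 ± 0.42, edgeR adjusted p = 0.00186). DGCR6, a gene of the chromosome 22 region deleted in DiGeorge syndrome, was at 16.4, 15.7 and 5.49 and 3.13, 3.01 and 3.35 CPM. The third vehicle library of DGCR6 stood far below the other 2 and still above each treated library. H4C15, a replication-dependent histone gene, had 137 reads in vehicle and none in treated libraries, at least 14.4-fold lower with a floor of 3 reads per library. Histone H4 genes are near-identical copies and most of their transcripts lack a polyA tail, so that value is uncertain.

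At 10 to 100 CPM the named rises were NPTX1, KCNA2, VCAN, TNC and CDKN1C. VCAN, the matrix proteoglycan versican (chromosome 5, 83471465 to 83582303), was at 34.7, 32.2 and 39.3 CPM in vehicle and 317, 337 and 317 CPM in treated libraries. NPTX1, a secreted neuronal pentraxin that gathers glutamate receptors at synapses (chromosome 17, 80467148 to 80477843), was at 15.8, 14.0 and 17.1 and 155, 150.0 and 149 CPM. KCNA2, a voltage-gated potassium channel of axons, was at 8.28, 8.03 and 7.76 and 79.5, 73.1 and 67.7 CPM. Every treated library of these genes was several times any vehicle library, with log2 fold changes of 3.19 ± 0.06, 3.27 ± 0.09 and 3.19 ± 0.10 and edgeR adjusted p of 2.81e-13, 3.39e-12 and 1.32e-11. TNC, the matrix glycoprotein tenascin C, rose from 23.1 ± 0.823 to 197 ± 3.45 CPM.

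The falls of this class included genes of matrix and sugar handling. HAS3, a hyaluronan synthase (chromosome 16, 69105564 to 69118719), was at 56.2, 66.2 and 59.0 CPM in vehicle and 16.7, 18.2 and 17.4 CPM in treated libraries (log2 fold change -1.79 ± 0.09, edgeR adjusted p = 3.15e-09). HMCN2, a hemicentin of the extracellular matrix, was at 60.0, 60.6 and 60.7 and 17.5, 16.1 and 17.2 CPM. SLC2A5, the fructose transporter, was at 15.3, 12.9 and 14.8 and 4.36, 4.74 and 4.50 CPM. The groups of all 3 genes were far apart, whereas ZACN, a zinc-gated channel, varied within both, with 21.6, 34.8 and 33.0 CPM in vehicle and 12.5, 9.68 and 5.83 CPM in treated libraries, and lost the call in limma on the deposited table, with the length offset, and without treated replicate 3 or vehicle replicate 2 or 3.

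At 100 CPM and more few genes changed 2-fold, 10 upwards and 4 downwards. IGFBP5, a secreted binder of insulin-like growth factors (chromosome 2, 216672105 to 216695525), was at 692, 699.6 and 714 CPM in vehicle and 2385, 2399 and 2387 CPM in treated libraries (log2 fold change 1.77 ± 0.05, edgeR adjusted p = 3.39e-12). Its relative IGFBPL1 went from 249.6 ± 12.0 to 638 ± 13.6 CPM and RASD2, a brain-enriched small GTPase, from 189.8 ± 6.88 to 459.9 ± 2.58 CPM. MYO6, the minus-end directed myosin of hair cells and vesicle uptake, rose from 333 ± 6.51 to 714 ± 22.0 CPM. On the falling side BMP7, a bone morphogenetic protein (chromosome 20, 57168748 to 57266629), was at 167, 171 and 161 CPM in vehicle and 68.2, 67.0 and 63.5 CPM in treated libraries (log2 fold change -1.33 ± 0.06, edgeR adjusted p = 1.61e-09). ADRA2B, an alpha-2 adrenergic receptor, fell from 240.3 ± 9.44 to 111 ± 1.70 CPM. Replicates of these abundant genes lay close together. That their treated and vehicle libraries did not overlap was required by the rule that named them.

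**Figure D3:**
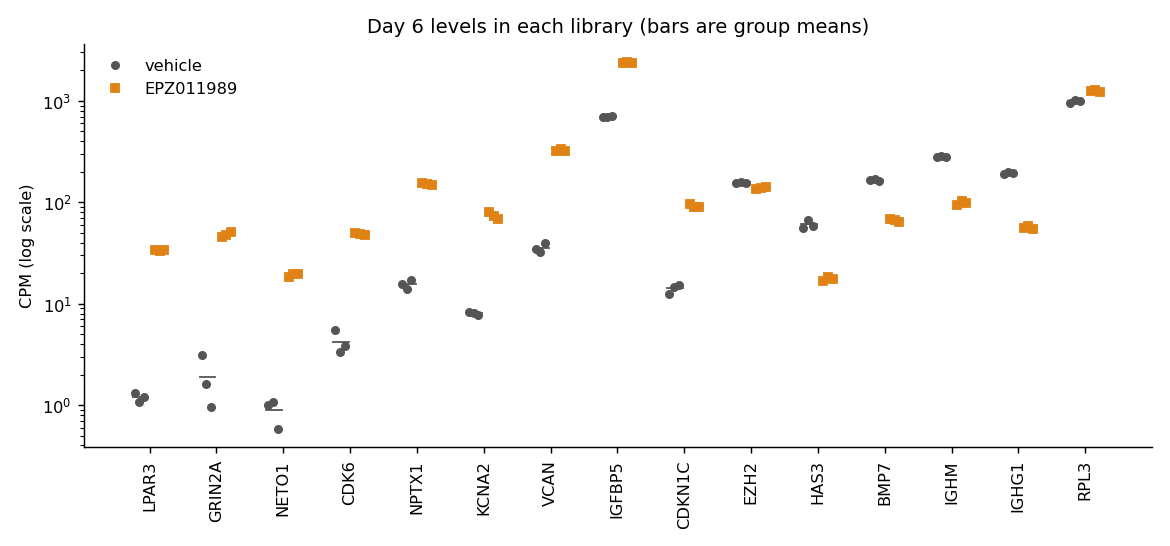
Levels of 15 genes in the 3 vehicle (circles) and 3 EPZ011989 libraries (squares) of day 6, in CPM on a log axis, with group means as bars. LPAR3, GRIN2A, NETO1 and CDK6 start at or below 5.52 CPM in vehicle, and EZH2 and RPL3 show small differences at high levels.

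The sequence at the gene start was examined because Polycomb targets often have CpG-rich starts. The first 300 bases of the protein-coding transcripts in GENCODE 29 were called CpG-rich when their GC content was above 50% and their ratio of observed to expected CpG above 0.6, using the median over a gene's transcripts, which gave a value for 98.6% of protein-coding genes. Among low genes the share risen at least 2-fold was larger for CpG-rich starts: 111 of 1393 (7.97%) against 81 of 4606 (1.76%) under 0.3 CPM, 144 of 445 (32.4%) against 110 of 708 (15.5%) at 0.3 to 1 CPM, and 252 of 1253 (20.1%) against 180 of 1367 (13.2%) at 1 to 10 CPM. At 10 to 100 CPM the shares were 1.79% of 4243 and 2.34% of 2900, in the other order, and at 100 CPM and more 0.367% of 1637 and 0.306% of 979. These are descriptions without a test. Under 0.3 CPM only 227 of the CpG-rich and 346 of the CpG-poor genes had enough reads to be tested. A gene of this class can reach that through its treated libraries alone. Of the tested genes of this class 48.9% and 23.4% rose at least 2-fold, and at 0.3 to 1 CPM 35.8% of 402 and 18.5% of 595. The part of the filter in these differences was not tested. CpG-rich genes of the lowest class also had a higher vehicle level, with a median of 0.0214 CPM against 0 CPM.

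The 4 promoters below show how widely CpG density varied among genes with large changes, and were picked after their values were seen, from named genes with a single start listed. Each is the 250 bases before the start in RefSeq (GRCh38.p14), written 5′ to 3′ on the strand of the gene with CpG dinucleotides in capitals. Over the 27305 genes of that promoter table the median was 11 CpG in these 250 bases and 93.6% of promoters held at least 1. LPAR3 lies at chr1:84893207-84893456, GRIN2A at chr16:10182068-10182317 and IGFBP5 at chr2:216695550-216695799, all on the minus strand, and HAS3 at chr16:69107290-69107539 on the plus strand.
LPAR3: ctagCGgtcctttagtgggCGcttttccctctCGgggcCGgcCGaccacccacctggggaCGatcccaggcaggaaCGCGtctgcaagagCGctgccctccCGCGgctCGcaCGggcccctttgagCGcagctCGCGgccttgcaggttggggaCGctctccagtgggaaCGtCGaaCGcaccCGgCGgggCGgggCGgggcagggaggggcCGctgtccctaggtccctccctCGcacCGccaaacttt
GRIN2A: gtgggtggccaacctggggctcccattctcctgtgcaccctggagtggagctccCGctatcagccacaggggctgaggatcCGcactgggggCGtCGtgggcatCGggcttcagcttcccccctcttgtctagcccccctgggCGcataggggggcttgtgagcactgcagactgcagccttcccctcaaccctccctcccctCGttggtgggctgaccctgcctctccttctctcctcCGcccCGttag
IGFBP5: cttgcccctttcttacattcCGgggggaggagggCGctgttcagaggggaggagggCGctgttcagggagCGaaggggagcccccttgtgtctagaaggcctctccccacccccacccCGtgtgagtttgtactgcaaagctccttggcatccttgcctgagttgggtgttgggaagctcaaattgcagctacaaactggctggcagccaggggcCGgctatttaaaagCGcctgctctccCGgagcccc
HAS3: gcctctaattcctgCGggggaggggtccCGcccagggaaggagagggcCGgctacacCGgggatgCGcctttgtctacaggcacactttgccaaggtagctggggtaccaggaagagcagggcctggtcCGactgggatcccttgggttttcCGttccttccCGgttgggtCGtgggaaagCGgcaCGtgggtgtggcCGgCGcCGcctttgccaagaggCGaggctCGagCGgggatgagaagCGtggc
The promoter of LPAR3 held 27 CpG, and 17.3% of promoters held at least as many, and that of HAS3, which fell, held 18. GRIN2A with 9 and IGFBP5 with 8 lay below the median, although both rose. The counts of GRIN2A and HAS3 belong to starts inside the gene, and their outermost starts were not counted.

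Genes risen at least 2-fold lay beside each other on the chromosome in part. Where the nearest tested gene had risen at least 2-fold, 17.5% of genes had done so too, against 6.49% where it had not and 7.10% of all genes placed. With neighbours at least 50 kb away the shares were 11.9% and 6.74%. Whole chromosomes also differed, with 3.07% of tested genes risen at least 2-fold on chromosome 22 and 15.5% on chromosome 18. Neither this nor vehicle level was accounted for in the neighbour shares, and no expected number of runs was computed. Runs of at least 3 consecutive tested genes risen at least 2-fold numbered 20 and held 65 genes. The longest, on chromosome 17 (68974488 to 69327244), held the lipid transporter genes ABCA9, ABCA6, ABCA10 and ABCA5 and the pseudogene SNRPGP4. ABCA9 was at 1.10, 0.977 and 0.739 CPM in vehicle and 9.15, 8.01 and 8.60 CPM in treated libraries, and ABCA5 at 329, 303 and 329 and 692, 688 and 694 CPM. The members thus rose from vehicle levels as different as these, with log2 fold changes of 3.19 ± 0.18 and 1.11 ± 0.06. A run on chromosome 7 (31052461 to 32299329) joined ADCYAP1R1, the receptor of the peptide PACAP, the proneural factor NEUROD6, PPP1R17 and the phosphodiesterase PDE1C. In a run on chromosome 9, PALM2, PALM2AKAP2 and AKAP2 are overlapping transcript models that share reads, and PALM2 lost its call with transcript lengths as an offset.

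Genes were next grouped into 87 classes by family or pathway, each read beside the shares of all tested genes, 17.1% risen and 17.0% fallen, and beside protein-coding genes of like level: 26.5% rose and 3.00% fell under 10 CPM, and 14.1% rose and 24.4% fell at 10 CPM or more. Some genes stand in several classes, and 73 of the 174 class counts moved by over 1.5 times with transcript lengths as an offset. Among transcription factors, 50 of 119 tested homeobox genes rose and 20 fell, with 35 of the 65 below 10 CPM rising. POU4F1, a POU factor of sensory neurons, was at 27.0, 23.0 and 22.0 CPM in vehicle and 116, 116 and 116 CPM in treated libraries. RORB, an orphan nuclear receptor of retina and cortex, rose from 4.67 ± 0.346 to 47.9 ± 1.32 CPM, and SOX11, a factor of immature neurons, from 8.16 ± 1.29 to 45.5 ± 1.07 CPM. Forkhead factors had 13 of 31 risen and 5 fallen, and tissue bHLH factors 15 of 38 risen and 4 fallen. The numbered zinc finger factors had 32 of 453 risen (7.06%) and 59 fallen (21 with transcript lengths as an offset), and below 10 CPM 13 of 111 rose. ZNF536, a repressor of neuronal differentiation genes, was among these 13 (2.85 ± 0.407 to 22.7 ± 0.480 CPM).

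**Figure D4:**
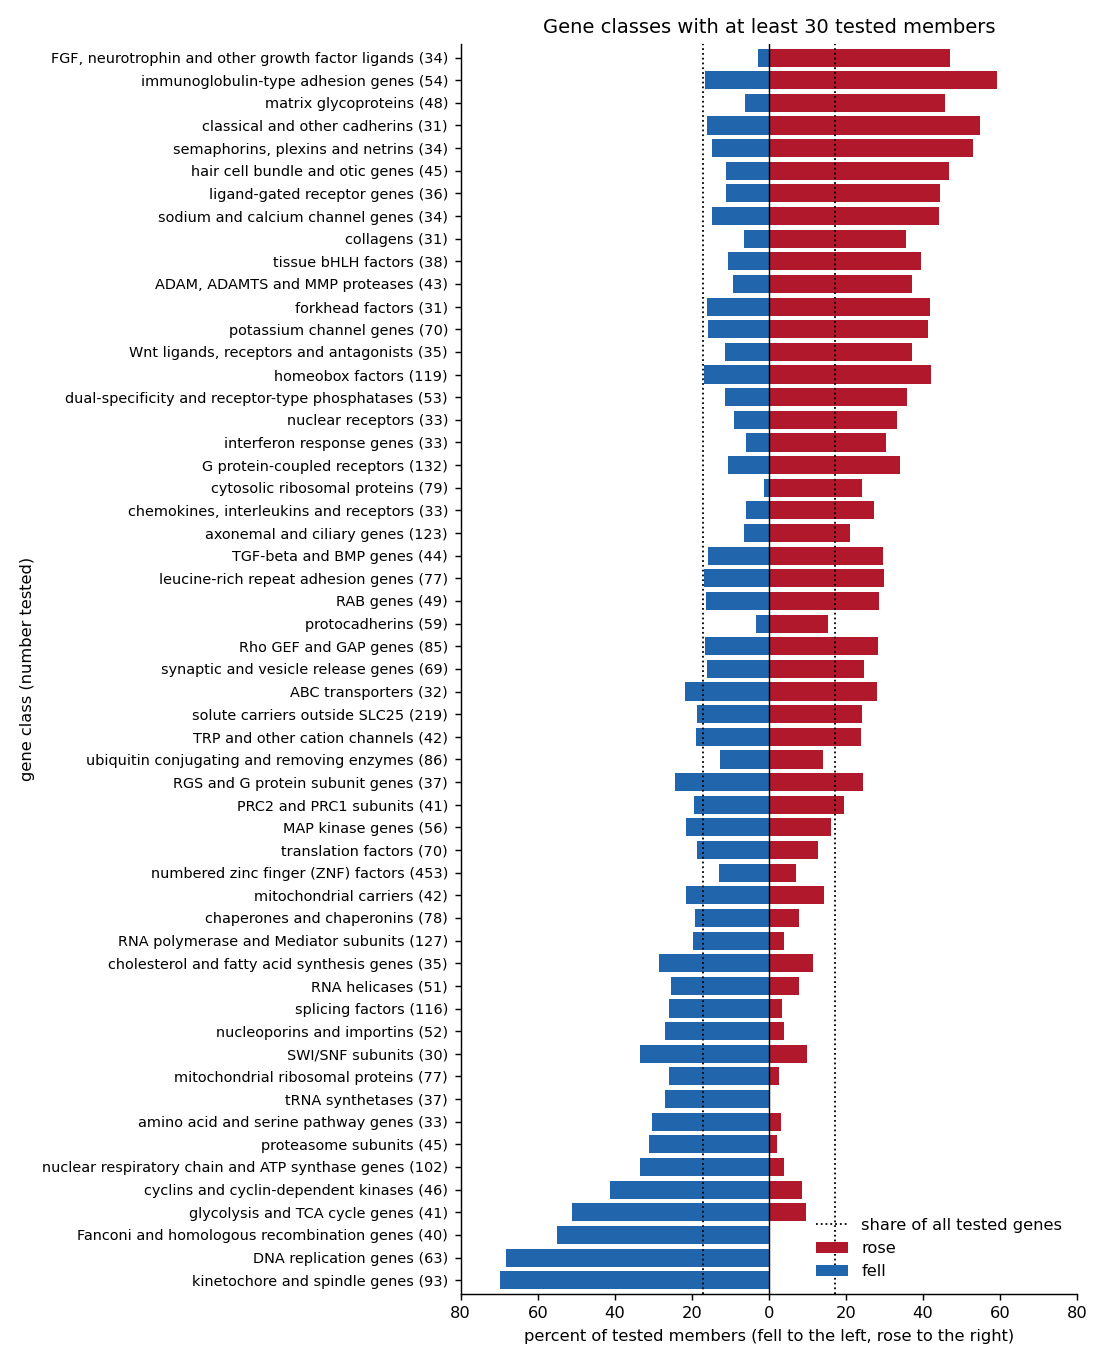
Percent of tested members that rose (right) or fell (left) in each gene class with at least 30 tested members, whose number stands in brackets; dotted lines mark the shares of all tested genes, 17.1% and 17.0%. Immunoglobulin-type adhesion genes and cadherins are near the top and cell division classes at the bottom.

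Most surface and adhesion classes had larger shares of risen genes than the 17.1% of all tested genes, but protocadherins and keratins did not. That share is not matched for level, and many members of these classes lay below 10 CPM. Of 54 tested immunoglobulin-type adhesion genes 32 rose and 9 fell, and at 10 CPM or more still 19 of 35 rose. CADM1, a synaptic and epithelial adhesion molecule, was at 26.2, 25.2 and 24.5 CPM in vehicle and 132, 146 and 150.4 CPM in treated libraries, and NRCAM, an adhesion molecule of axons, at 14.1, 13.4 and 15.6 and 62.4, 65.0 and 64.1 CPM. Neither gene's groups came near each other (log2 fold changes 2.49 ± 0.07 and 2.15 ± 0.07, edgeR adjusted p = 3.39e-12 and 3.14e-11). Cadherins had 17 of 31 risen and 5 fallen, semaphorins, plexins and netrins 18 of 34 and 5, and matrix glycoproteins 22 of 48 and 3. With transcript lengths as an offset 11 cadherins and 11 genes of the semaphorin class rose. Of 31 collagens 11 rose (7 with the offset), among them COL6A1 (7.58 ± 1.10 to 40.5 ± 2.45 CPM), and of 16 integrins 6 rose and 0 fell by edgeR's adjusted p (1 at an unadjusted p under 0.05, 0 by DESeq2). Protocadherins had 9 of 59 risen (15.3%) and 2 fallen, and below 10 CPM 7 of 47 rose, where 26.5% of protein-coding genes did. Of 11 tested keratins 5 fell (2 with transcript lengths as an offset). None of the keratins rose by edgeR's adjusted p, at an unadjusted p under 0.05 or by DESeq2 (0 in each). Basement membrane genes had 7 of 14 fallen and 4 risen, and the order turned with transcript lengths as an offset (3 fallen, 5 risen), while with only the day 6 libraries 5 fell and 5 rose. FREM2, a Fraser complex protein of the epidermal basement membrane, was among the falls (72.3 ± 3.59 to 26.1 ± 0.389 CPM).

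Channels and receptors followed. Potassium channel genes had 29 of 70 risen and 11 fallen, ligand-gated receptor genes 16 of 36 and 4, and G protein-coupled receptors 45 of 132 and 14. With transcript lengths as an offset 6 potassium channel genes and 5 G protein-coupled receptors fell. ADGRL3, a latrophilin that binds adhesion molecules across the synapse, was at 44.5, 44.5 and 40.3 CPM in vehicle and 205, 199 and 203 CPM in treated libraries. MCOLN3, an endolysosomal cation channel, rose from 3.24 ± 1.40 to 34.6 ± 1.45 CPM and CACNA1C, the pore of an L-type calcium channel, from 1.08 ± 0.121 to 6.65 ± 0.551 CPM. Of 29 receptor tyrosine kinase genes 14 rose and 3 fell. FLT1, a receptor of vascular endothelial growth factor, was at 0.938, 0.706 and 0.950 CPM in vehicle and 9.10, 8.65 and 8.13 CPM in treated libraries. EPHA2, a receptor of ephrins, went from 0.774 ± 0.123 to 6.51 ± 0.771 CPM, both genes starting below 1 CPM in every vehicle library.

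Growth factor family genes and Notch pathway genes also had larger shares of risen members than the 17.1% of all tested genes, which are not matched for level. Below 10 CPM 13 of 25 and 9 of 15 rose, where 26.5% of protein-coding genes did. At 10 CPM or more 3 of 9 and 4 of 14 rose, beside 14.1%. Of 34 growth factor family genes 16 rose and 1 fell. The rises included MDK, the heparin-binding factor midkine (4.62 ± 0.739 to 17.7 ± 0.903 CPM), and FGF14, an intracellular FGF that modulates sodium channels (55.0 ± 3.54 to 118 ± 3.31 CPM). CXCL12, the chemokine that binds CXCR4, was at 31.1, 32.7 and 35.4 CPM in vehicle and 129, 124 and 131 CPM in treated libraries (log2 fold change 1.95 ± 0.06, edgeR adjusted p = 1.32e-11). Of 29 Notch pathway genes 13 rose and 4 fell, with NOTCH2 at 42.9, 42.4 and 42.7 CPM in vehicle and 131, 124 and 133 CPM in treated libraries. HES1, a repressor that Notch signalling induces, rose from 2.39 ± 1.09 to 14.6 ± 1.94 CPM. RGS16, which shuts off G protein signalling, rose from 3.37 ± 0.492 to 29.3 ± 2.99 CPM, in a class of RGS and G protein subunit genes with 9 of 37 risen (5 with transcript lengths as an offset) and 9 fallen.

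Cell division classes had many fallen members. Of 63 tested DNA replication genes 43 fell, of 93 kinetochore and spindle genes 65, and of 40 Fanconi and homologous recombination genes 22, beside 24.4% fallen among all protein-coding genes at 10 CPM or more. No member of these 3 classes rose by edgeR's adjusted p, at an unadjusted p under 0.05 or by DESeq2 (0 in each class), but 1 kinetochore and spindle gene rose with only the day 6 libraries in the fit. The changes were small, with class medians of -0.28, -0.31 and -0.32 log2. MCM7, a subunit of the replicative helicase, was at 556, 594 and 591 CPM in vehicle and 437, 438 and 446 CPM in treated libraries. SMC4, a condensin subunit, was at 737, 673 and 697 and 484, 479 and 475 CPM. Neither overlapped between groups (log2 fold changes -0.40 ± 0.04 and -0.55 ± 0.06, edgeR adjusted p = 4.89e-06 and 5.63e-06). With transcript lengths as an offset 31, 43 and 13 members of the 3 classes fell and 0 rose. Among cyclins and cyclin-dependent kinases 19 of 46 fell, 2 of them at least 2-fold, and 4 rose, 3 of them at least 2-fold. CDK6, a partner of D-type cyclins, was at 5.52, 3.31 and 3.80 CPM in vehicle and 49.5, 49.2 and 48.1 CPM in treated libraries (log2 fold change 3.54 ± 0.14, edgeR adjusted p = 1.93e-10), while CDC25A, the phosphatase that activates these kinases, fell from 81.1 ± 0.592 to 51.4 ± 1.27 CPM.

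Housekeeping classes of high level divided. Of 79 cytosolic ribosomal protein genes 19 rose and 1 fell, with a class median of 0.04 log2, and with only the day 6 libraries in the fit 31 rose. RPL3 was at 961, 1009 and 997 CPM in vehicle and 1253, 1284 and 1228 CPM in treated libraries, a shift of 0.34 ± 0.03 log2 that exceeded the replicate spread (edgeR adjusted p = 9.78e-07). Mitochondrial ribosomal proteins (20 of 77 fallen, 2 risen), nuclear genes of the respiratory chain and ATP synthase (34 of 102 and 4), proteasome subunits (14 of 45 and 1), splicing factors (30 of 116 and 4) and tRNA synthetases (10 of 37 and 0 by edgeR's adjusted p, with 1 rise at an unadjusted p under 0.05 and 0 by DESeq2) had more falls than rises. The fallen shares, 26.0%, 33.3%, 31.1%, 25.9% and 27.0% in this order, stood beside 24.4% of all protein-coding genes at 10 CPM or more, and those of mitochondrial ribosomal proteins, splicing factors and tRNA synthetases were near it. With transcript lengths as an offset the falls were 6, 16, 8, 13 and 4. Glycolysis and TCA cycle genes had 21 of 41 fallen and 4 risen, and GOT2, the mitochondrial aspartate aminotransferase, was at 494, 467 and 464 CPM in vehicle and 307, 309.7 and 302 CPM in treated libraries. Hexokinases rose against this direction, HK1 from 89.7 ± 3.03 to 147 ± 2.73 CPM and HK2 from 2.15, 1.52 and 1.58 CPM to 10.4, 8.27 and 8.25 CPM. ATF5, a stress-response transcription factor, fell from 274 ± 17.7 to 144 ± 7.34 CPM. PSAT1, an enzyme of serine synthesis, rose from 89.1 ± 4.42 to 153 ± 3.83 CPM, whereas amino acid and serine pathway genes had 1 of 33 risen and 10 fallen (30.3%).

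Classes of vesicle traffic and cytoskeleton also held large single changes. RAB15, a GTPase of endosome recycling, was at 67.9, 68.2 and 67.3 CPM in vehicle and 155, 161 and 159 CPM in treated libraries, and CADPS, a priming factor of dense-core vesicles, at 71.6, 70.6 and 69.2 and 235, 226 and 226 CPM. PAM, the enzyme that amidates peptide hormones, rose from 8.17 ± 0.371 to 27.1 ± 0.574 CPM and CALCB, a calcitonin gene-related peptide gene, fell from 39.6 ± 1.54 to 13.4 ± 0.882 CPM. KIF19, a kinesin of motile cilia, rose from 231 ± 7.61 to 431 ± 5.71 CPM and KIF5C, a kinesin of axonal transport, fell from 454 ± 9.51 to 298 ± 3.04 CPM. MYO16, an unconventional myosin of neurons, rose from 0.539 ± 0.293 to 8.68 ± 0.0330 CPM. Of 24 myosin genes 11 rose and 3 fell, and of 49 RAB genes 14 rose and 8 fell. With transcript lengths as an offset 6 myosin genes rose and 4 RAB genes fell.

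Outside protein-coding genes the counts were small. Of 899 tested pseudogenes 61 rose and 31 fell, and reads of a pseudogene can belong to its parent gene. Of 25 tested long noncoding or other RNAs 4 fell and 0 rose by edgeR's adjusted p (1 at an unadjusted p under 0.05, 0 by DESeq2), although the transcript set held only 77 of them and other noncoding genes were not analysed here. C2orf48 was at 7.95, 8.63 and 8.29 CPM in vehicle and 4.65, 4.87 and 5.13 CPM in treated libraries, a call that was lost with transcript lengths as an offset and without vehicle replicate 2. Of 13 tested immunoglobulin or T cell receptor segments 6 fell, with IGHM, the mu heavy chain, at 279.6, 286 and 278 CPM in vehicle and 94.9, 103 and 98.1 CPM in treated libraries.

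The base composition of transcripts moved with the falls. Among protein-coding genes at 10 CPM or more, 13.1% fell in the quintile with the lowest GC content (at most 42.1% GC) and 37.8% in the quintile with the highest (at least 58.6%), and 15.4% and 8.97% rose. The median log2 fold change went from -0.00 to -0.19. Vehicle libraries differed among themselves in the same measure, but less, with -0.06 to 0.04 in the quintile of highest GC content against -0.20 to -0.17 in treated libraries. Transcript lengths as an offset left a median of -0.13 there. When the median trend over 20 GC classes was removed from each library, an alternative chosen after the data were seen, 2806 genes rose and 2759 fell, and 50 replication genes and 71 kinetochore and spindle genes were among the falls. The part of base composition in single falls was not tested.

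**Figure D5:**
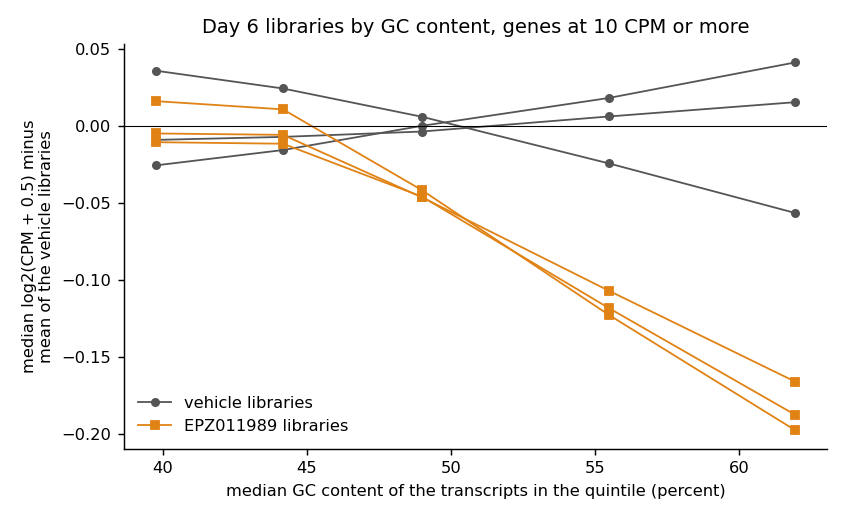
Median over genes of log2(CPM + 0.5) minus the gene's vehicle mean, for each day 6 library (y), in quintiles of protein-coding genes at 10 CPM or more ordered by transcript GC content (x, median percent GC). The 3 treated libraries fall together to between -0.20 and -0.17 at the highest GC content, where the vehicle libraries span -0.06 to 0.04.

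The day 12 libraries have vehicle controls of their own but were taken after longer treatment, so they are not a repeat of day 6. Calls of both days came from the same fit, with a shared filter and estimate of the spread, and are not independent. The shares of all tested genes given below are not matched for level, and 85.6% of the genes risen at least 2-fold at day 6 were under 10 CPM. Of the 1067 genes risen at least 2-fold at day 6, 909 (85.2%) were also called higher at day 12, where 33.7% of all tested genes rose. Of the 104 genes fallen at least 2-fold, 62 (59.6%) were called lower at day 12, where 33.2% of tested genes fell, and 10 were called higher.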

How the data were processed

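PolyA-selected RNA was sequenced in 12 libraries. Per transcript the authors deposited estimated counts, and per gene a table of normalized signal; the formula behind the signal was not given in the sources used here. Tools and build named by the submitters' processing notes are FastQC, hg38, DESeq2 and Salmon 1.2.0. Estimated counts were summed per gene of GENCODE 29 (GRCh38) and rounded, and the 3.08 to 3.16% of day 6 reads without a matched gene were left out. The summed level of a gene can differ from the deposited signal where transcripts are unmatched, which CACNA1C (1.34 times the deposited level) shows, and PALM2AKAP2 at 0.334 times.

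Genes were tested two-sided by quasi-likelihood in edgeR 4.0.16 under R 4.3.3, with the 12 libraries in 4 groups, after filterByExpr defaults (minimum count 10) and TMM, with Benjamini-Hochberg adjusted p under 0.05 over 15024 genes and a fold limit of 2 where stated. Alternatives were DESeq2 1.42.0 and its size factors, library totals, other filters, only the day 6 libraries, effective transcript lengths as an offset, limma 3.58.1 on log2 of the deposited signal plus 1 or 5, only genes summed to 0.8 to 1.25 times the deposited level, adjusted p under 0.01, the replicate number as a block, each library left out in turn and, chosen after the data were seen, removal of the GC trend. The deposited p-values or fold changes of the authors were not used.

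Level classes use the mean CPM of the day 12 vehicle libraries, and untested genes count as not called. Named genes were the 5 largest rises and falls per level class with at least 1 CPM in the higher group, groups that do not overlap and a completely summed level, up to 3 members per gene class by p, a few genes by name, and the 3 longest runs. Genes shown in the text are a part of these. The members, lists and classes were chosen with earlier results of these data known. The promoter table covers 77.0% of protein-coding genes, under the 80% a comparison needs, so that planned comparison is void, and transcript starts, covering 98.6%, were used in its place after the data were seen.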

Additional observations from a re-analysis of the deposited data

Results flagged for a closer look

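In 7 of the named genes the change at day 6 and the change at day 12 were both called and ran in opposite directions, and the difference between days itself passed edgeR's quasi-likelihood test. DGCR6 fell by 1.98 at day 6 and was higher by 2.01 at day 12 on the log2 scale, a difference of 3.99 (edgeR adjusted p = 5.10e-06). Its day 6 vehicle libraries differed widely among themselves, as given above, and its day 12 vehicle level lay in the class of 1 to 10 CPM. The vehicle level of DGCR6 was thus itself not steady. HERC5, an interferon-induced ligase, went from 1.43 to -0.76 (difference -2.19), and KLF3, a transcriptional repressor, from 0.74 to -0.59 (difference -1.32). KRT18, a simple epithelial keratin, went from -0.13 to 0.36 (difference 0.48), and its day 6 call was lost under several alternatives. The mitochondrially encoded MT-CO1 went from 0.24 to -0.34 (difference -0.58) and MT-CO2 from 0.25 to -0.40 (difference -0.66). RPL26, a ribosomal protein gene, went from 0.34 to -0.20 (difference -0.54).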

How the results depend on the processing

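No named gene called in the main fit or in an alternative had the opposite direction in that alternative. Turns of named genes called in neither were not counted. The numbers of named genes that lost the call ranged from 0 of 293 with DESeq2 size factors to 24 of 293 with transcript lengths as an offset. The 5133 calls became 3238 with the length offset and 3402 at adjusted p under 0.01. The 2558 falls became 1583 and 1594 in limma on the deposited table with pseudocounts 1 and 5, 1314 with the length offset and 1527 at adjusted p under 0.01, and the 104 falls of at least 2-fold became 57 at adjusted p under 0.01. Leaving out 1 library at a time gave 3887 to 4494 calls, 2216 to 2456 rises, 1601 to 2038 falls, 970 to 1026 rises of at least 2-fold and 68 to 97 falls of that size. By level, rises under 0.3 CPM were 0.206% of genes when classes used the 6 day 6 libraries and 29.8% of tested genes only. Falls there were 0.0145% with the length offset, 0.00485% and 0.00981% with classes by the day 6 vehicle or all 6 day 6 libraries, and 0.893% of tested genes. Falls at 0.3 to 1 CPM were 0.364% with library totals, 0.85% with DESeq2, 0.121% with the length offset and 1.22% with classes by the 6 day 6 libraries. With the length offset falls were 1.84% at 1 to 10 CPM, 9.49% at 10 to 100 CPM and 21.1% at 100 CPM and more, where rises were 18.1% with only the day 6 libraries. The cause of these shifts was not tested. Of 174 class counts 73 moved by over 1.5 times with the length offset, 18 with only the day 6 libraries, 16 with library totals and 10 with the GC trend removed. No pairing by replicate number was detected. Deviations of same-numbered libraries correlated at -0.06, -0.03 and -0.03, and those of differently numbered libraries at -0.01 to 0.04. With 3 libraries in a group such values cannot exclude a shared culture or batch. With the replicate number as a block 5169 genes were called, 2551 up and 2618 down. Effective length exceeded transcript length in 4.52% of transcripts, so the offset also carries other corrections of the quantification. Depth limits the low classes, where the median standard error under 0.3 CPM was 0.80.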

Other observations

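Of 33 tested interferon response genes 10 rose and 2 fell, beside 17.1% and 17.0% of all tested genes, and with transcript lengths as an offset 4 rose and 1 fell. Of the 22 below 10 CPM 9 rose, where 26.5% of protein-coding genes did. SAMHD1, a nucleotide-hydrolysing restriction factor, was at 44.1 ± 3.16 CPM (SD, n = 3) in vehicle and 73.0 ± 1.19 CPM in treated cells and OAS3, which is activated by double-stranded RNA, fell from 181 to 129 CPM. Of 16 HLA class I and peptide loading genes 2 rose and 1 fell, and TAP1, a subunit of the peptide transporter, rose from 2.61 to 11.3 CPM. Genes with too few reads for a test took 0.0481 to 0.0511% of reads in vehicle and 0.0527 to 0.0628% in treated libraries, and 74 of them had no read in vehicle and reads in all 3 treated libraries, against 64 with the reverse.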
